A study of Mus musculus with 3 samples.

Results

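The proteasome genes were read as 1 module in ATAC-seq of mouse islets of Langerhans, an assay that marks open chromatin by where a transposase can insert sequencing adapters. Members were the autosomal protein-coding genes whose symbol begins Psma, Psmb, Psmc, Psmd, Psme, Psmf or Psmg followed by a digit, which gave 49 genes of 21275 in the GENCODE annotation of mm9. Psmd10, on chromosome X, was not counted. The symbols also took in Psmc3ip, a cofactor of meiotic recombination rather than a proteasome subunit, and Psme2b-ps, a copy of Psme2 with a pseudogene name that the annotation lists as protein coding, so 47 of the 49 are subunits, regulators or assembly factors of the proteasome.

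The study asked what the loss of Taf4, part of the TFIID complex that helps place RNA polymerase at promoters, does to beta cells. Of the 3 libraries, the control came from wild type (WT) animals and the others from Taf4 KO animals taken 1 week and 5 weeks after inactivation, all of the strain given in the labels as C5LBl6. The methods describe adult animals with the Ins1::Cre-ERT2 transgene, in which tamoxifen switches on Cre recombinase in cells using the insulin promoter, and either floxed or intact Taf4 alleles, with tamoxifen given to both genotypes, so by that wording the controls carried driver and drug as well, and the other islet cells of the mutants kept Taf4. Whole islets were dissociated with Accutase and were not sorted into cell types for this assay as far as the sources state, the number of mice per library was not given, and with 1 library per group no p-value could be computed, so each difference below is a difference between libraries.

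The proteasome is the protease of the cytosol and nucleus that degrades proteins tagged with ubiquitin. Its barrel-shaped core is built from rings of alpha (Psma) and beta (Psmb) subunits, of which a few beta subunits cut peptide bonds, and it is opened by a regulatory cap of ATPases (Psmc) that unfold substrates and non-ATPase subunits (Psmd) that recognise and strip ubiquitin. After interferon, Psmb8, Psmb9 and Psmb10 replace the standard catalytic subunits to form the immunoproteasome, which with the Psme1 and Psme2 activator supplies peptides for antigen presentation. In beta cells, which make insulin in bulk, the proteasome takes part in the disposal of misfolded proinsulin from the endoplasmic reticulum.

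The promoters of 6 members with calls that differed between the lists are shown as examples of the sequence in question, 250 bases upstream of the RefSeq start in each case, taken from the RefSeq promoter table of GRCm38.p6 and placed on mm9 by an exact and single match. Psmd2 lies at chr16:20651475-20651724 on the + strand, Psmb6 at chr11:70338609-70338858 on the + strand, Psmd9 at chr5:123677949-123678198 on the + strand, Psmg3 at chr5:140302849-140303098 on the - strand, Psme3 at chr11:101177277-101177526 on the + strand and Psmb10 at chr8:108462293-108462542 on the - strand. None of the 6 windows held an annotated exon. Of the 250 bases, WT peaks covered 250 in Psmd2 and Psme3, 170 in Psmd9, 151 in Psmg3, 144 in Psmb6 and 0 in Psmb10. Peaks of the 5-week list covered 250, 250, 96, 184, 221 and 120 of them in the same order, and 1-week peaks covered 0 in each. The first 5 genes thus had a promoter peak in the WT and 5-week lists only, and the promoter call of Psmb10 was made in the 5-week list alone. Sequences run 5′ to 3′, and capitals mark any of 7 motifs searched on both strands.
Psmd2: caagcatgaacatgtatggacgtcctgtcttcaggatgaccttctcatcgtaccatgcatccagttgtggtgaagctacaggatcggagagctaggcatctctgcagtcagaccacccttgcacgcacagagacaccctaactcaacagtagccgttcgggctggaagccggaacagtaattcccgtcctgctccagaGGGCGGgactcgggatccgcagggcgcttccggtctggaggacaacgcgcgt
Psmb6: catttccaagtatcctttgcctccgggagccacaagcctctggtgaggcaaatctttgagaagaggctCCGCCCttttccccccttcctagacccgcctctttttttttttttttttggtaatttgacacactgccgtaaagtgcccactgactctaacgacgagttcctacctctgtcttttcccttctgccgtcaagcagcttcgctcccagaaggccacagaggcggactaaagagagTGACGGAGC
Psmd9: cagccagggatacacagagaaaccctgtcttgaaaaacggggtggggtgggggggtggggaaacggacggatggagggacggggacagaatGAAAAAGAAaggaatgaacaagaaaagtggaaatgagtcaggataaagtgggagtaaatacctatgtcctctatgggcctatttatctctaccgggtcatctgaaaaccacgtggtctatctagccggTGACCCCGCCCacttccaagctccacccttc
Psmg3: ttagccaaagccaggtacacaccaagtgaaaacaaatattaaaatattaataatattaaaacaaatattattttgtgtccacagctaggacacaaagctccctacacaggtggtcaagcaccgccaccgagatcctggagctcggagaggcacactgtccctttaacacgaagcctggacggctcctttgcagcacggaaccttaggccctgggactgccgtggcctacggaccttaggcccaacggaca
Psme3: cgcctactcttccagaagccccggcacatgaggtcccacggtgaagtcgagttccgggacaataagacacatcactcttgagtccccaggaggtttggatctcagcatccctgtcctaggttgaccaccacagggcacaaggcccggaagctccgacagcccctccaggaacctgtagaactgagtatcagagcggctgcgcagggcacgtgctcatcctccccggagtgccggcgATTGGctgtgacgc
Psmb10: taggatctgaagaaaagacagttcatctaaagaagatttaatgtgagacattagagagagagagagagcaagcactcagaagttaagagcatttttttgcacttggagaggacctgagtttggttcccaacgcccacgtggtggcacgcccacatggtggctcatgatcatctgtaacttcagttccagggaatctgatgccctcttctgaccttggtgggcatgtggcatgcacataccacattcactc

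The motifs were TGACNNNGC (the core of the antioxidant response element, read by Nfe2l1 and Nfe2l2, of which Nfe2l1 is the known activator of proteasome genes when the proteasome is impaired), the GC box GGGCGG, the ETS-type motif CCGGAAGT, the motif GCATGCGC of the nuclear respiratory factor Nrf1 (a protein other than Nfe2l1), the YY1-type motif AAGATGGCG, the interferon-type motif GAAANNGAA and the short motif CCAAT. They were sought in RefSeq promoters from 250 bases before to 50 bases after the start, which matched 40 of the 49 members and 14206 autosomal genes by symbol. Psma8, Psmb1, Psmb2, Psmb7, Psmc3, Psmd3, Psmd7, Psme2b-ps and Psmg2 were not matched.

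The Psmb6 window above holds the letters of the antioxidant response element 9 bases before the start, and those of a GC box on the other strand 182 bases before it. In Psmd9 an antioxidant response element 31 bases before the start shares letters with a reversed GC box, and an interferon-type match lies 159 bases before the start. The Psmd2 match is a GC box at 52 bases and the Psme3 match a reversed CCAAT at 14 bases, while the Psmg3 and Psmb10 windows hold none of the 7.

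Over all matched members, the antioxidant response letters stood in 6 of 40 promoters (15.0%, against 13.5% of all genes), namely those of Psmb5, Psmb6, Psmc6, Psmd9, Psmd12 and Psme4. The ETS-type letters stood in 8 (20%, against 5.41% of all genes and 9.02% of genes with CpG-rich promoters, defined below). GC boxes were in 22 (55.0% against 48.5%), CCAAT in 14 (35.0% against 38.5%), interferon-type letters in 6 (15.0% against 8.10%), Nrf1-type letters in 3 (7.50% against 3.74%) and YY1-type letters in 2 (5% against 2.0%). In genes with CpG-rich promoters GC boxes stood in 72.2% and the antioxidant response letters in 15.6%. The members were thus below that class in GC boxes and close to it in the antioxidant response letters. The shares of that class were 38.3% for CCAAT, 5.97% for interferon-type, 6.36% for Nrf1-type and 3.39% for YY1-type letters. Motif shares are descriptions of letters, and a window without a match says nothing of the factor.

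A promoter peak was a peak with at least 1 bp between the position 1000 bp before and that 100 bp after an annotated start, whichever start of the gene it was. There were 60898 peaks in the WT list and 150354 and 151725 in those of 1 week and 5 weeks. The recovered background of the caller was 1.76 times the WT level at 1 week and 2.57 times at 5 weeks, so depth differed between lists. Promoter peaks stood at 7, 6 and 6 of 7 beta cell genes in WT, 1 week and 5 weeks, the gene that differed being Slc2a2. They stood at 3, 4 and 4 of 4 alpha cell genes, at 0, 1 and 2 of 2 delta cell genes, at 0, 2 and 4 of 14 immune genes, at 1, 2 and 4 of 5 endothelial genes, at 0, 0 and 0 of 4 acinar genes and at 1, 0 and 1 of 2 duct genes. Taf4a, the gene inactivated, had a promoter peak in every full list, which does not check the deletion. Its 1-week peak was weak, with a −log10 q of 1.32 against 8.53 in WT and 8.01 at 5 weeks. It would not pass the stricter cut-offs of 3 and 5 used as alternatives. In such bulk material fewer cells of a type and less signal per cell cannot be told apart.

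Most proteasome promoters held a peak in each list. In WT, 45 of 49 members had a promoter peak (91.8%), against 59.9% of all autosomal genes. At 1 week the number was 36 (73.5%), against 56.1%, and at 5 weeks it was 46 (93.9%), against 66.7%. Genes with a CpG-rich promoter, here an observed over expected CpG of at least 0.6 in the 1 kb around the start, are the nearer comparison, since 79.6% of members and 47.4% of all autosomal genes were of that kind. Of the 10075 CpG-rich genes, 92.7%, 82.8% and 95.9% had a promoter peak in WT, 1 week and 5 weeks, so the members stood close to that class in WT and at 5 weeks and below it at 1 week.

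**Figure D1:**
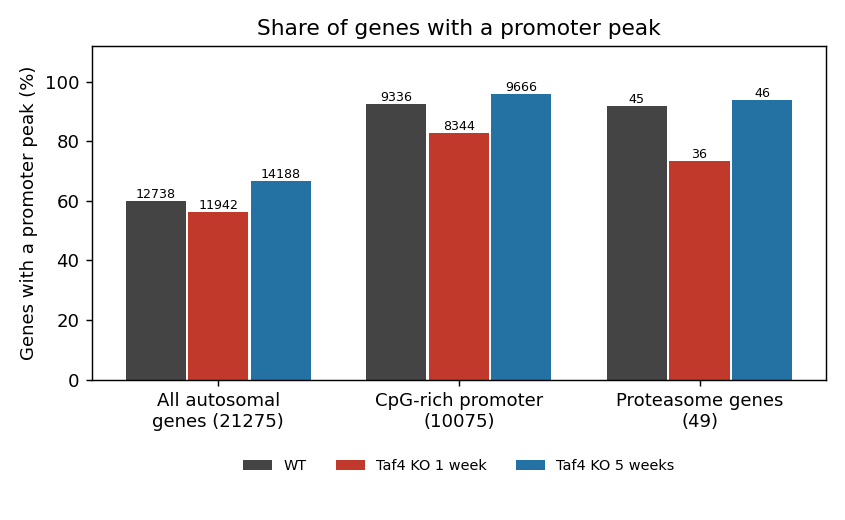
Share of genes with a promoter peak (%, vertical axis from 0) in all autosomal genes, in genes with a CpG-rich promoter and in the proteasome genes, with a bar per list and the number of genes above it. The bar of the proteasome genes falls from 45 genes in WT to 36 at 1 week and stands at 46 at 5 weeks.

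The 1-week list missed 9 of the 45 members called in WT (20%, Wilson 95% interval 10.9 to 33.8%), where 14.8% of all genes and 12.6% of CpG-rich genes lost theirs. The interval counts genes on lists, covers counting only, and holds both background shares. The 9 were Psmb5, Psmb6, Psmc1, Psmd2, Psmd3, Psmd9, Psmd12, Psme3 and Psmg3. At 5 weeks 0 of the 45 were without a peak, which allows a share of up to 6.67%, where 1.82% of all genes and 0.621% of CpG-rich genes were. Of the 4 members without a WT promoter peak, 0 gained one at 1 week, where 12.7% of such genes did, and 1 at 5 weeks, where 19.7% did. Both comparisons share the WT library. With only peaks of −log10 q of at least 5 kept, 23 of the 45 were lost at 1 week, against 35.8% of all genes, and 2 at 5 weeks, Psmc1 and Psmd9, against 1.62%.

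The core particle supplied a pair of the 9. Psmb5, the chymotrypsin-like catalytic subunit, had a WT peak of 694 bp at a fold of 4.99, no peak at 1 week and a 5-week peak of 725 bp at a fold of 3.09, where fold is the caller's enrichment over local background averaged over the peak. Psmb6, the caspase-like catalytic subunit, had the narrowest WT peak of any member, 327 bp at a fold of 5.12, none at 1 week, and 422 bp at a fold of 5.51 at 5 weeks. Ranked by −log10 q among all peaks of its own list, the Psmb6 peak stood at percentile 79.3 in WT and at 98.0 at 5 weeks, while Psmb5 stood at 78.3 and 79.2. The remaining standard catalytic subunit, the trypsin-like Psmb7, was called in every full list, with widths of 668, 461 and 507 bp, folds of 3.69, 2.82 and 3.50 and percentiles of 64.5, 75.6 and 84.0 in WT, 1 week and 5 weeks, and was not called at 1 week when only peaks of −log10 q of at least 5 were kept.

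The Psmc and Psmd genes of the regulatory cap and its assembly supplied 5 more. Psmd2 and Psmd3 had some of the stronger WT peaks, at percentiles 95.5 and 96.4. Psmd2, a large scaffold subunit that docks ubiquitin receptors, went from 874 bp at a fold of 6.21 in WT to no peak at 1 week and 742 bp at a fold of 3.73 at 5 weeks. Psmd3, a subunit of the lid, went from 797 bp at a fold of 5.53 to none and then to 610 bp at a fold of 4.38. Psmd12, another lid subunit, had 529 bp at a fold of 5.91 in WT and 545 bp at a fold of 4.41 at 5 weeks, with percentiles of 92.8 and 93.4 among all peaks and of 71.3 and 64.3 among promoter peaks. Psmd9, a chaperone that assembles the ATPase base, had a WT peak of 428 bp at a fold of 5.17 and a 5-week peak of 398 bp at a fold of 2.74, and its percentile was 86.2 in WT and 70.2 at 5 weeks. Psmc1, the ATPase of the cap whose tail takes part in opening the core, had 584 bp at a fold of 4.71 in WT and 482 bp at a fold of 2.51 at 5 weeks, with percentiles of 79.2 and 62.8. The Psmc1 and Psmd9 peaks were thus present at 5 weeks but low among the promoter peaks of that list, at percentiles 11.5 and 15.7.

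The last pair were a Psme and a Psmg gene. Psme3, the nuclear activator that caps the core without ATP, had 918 bp at a fold of 5.28 and percentile 89.6 in WT and 742 bp at a fold of 3.12 and percentile 78.3 at 5 weeks. Psmg3, an assembly chaperone of the alpha ring, had 463 bp at a fold of 4.03 and percentile 71.7 in WT and 373 bp at a fold of 3.97 and percentile 88.9 at 5 weeks. Neither had a peak at 1 week.

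At 1 week these losses were not small shifts out of the window. The peak nearest to the start lay 8510 bp away for Psmd12, 11640 bp for Psmb5, 12369 bp for Psmg3 and 21512 bp for Psmd2. For Psme3 it lay 32102 bp away, for Psmd3 36337 bp, for Psmb6 36976 bp, for Psmc1 49115 bp and for Psmd9 77900 bp. Of the WT promoter peaks themselves, 35 of the 45 of members were overlapped by a 1-week peak, against 86.6% of all WT promoter peaks, and 45 of 45 by a 5-week peak, against 98.3%. The 10 not overlapped at 1 week were the 9 lost members and Psmd13, a lid subunit whose 1-week call rested on a 214 bp peak near another annotated start within the gene, while its WT peak of 1012 bp, in a promoter shared with Sirt3, had no 1-week counterpart.

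**Figure D2:**
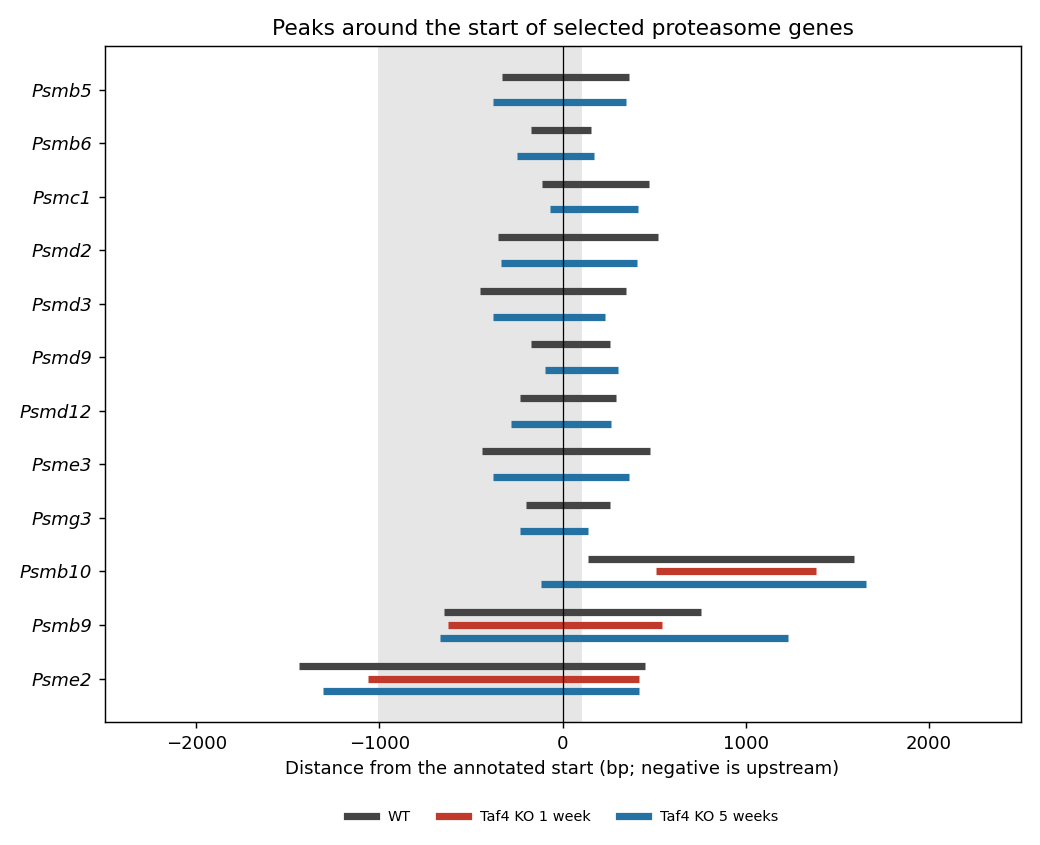
Peaks within 2500 bp of the annotated start of the 9 members without a promoter peak at 1 week and of Psmb10, Psmb9 and Psme2, as bars over the distance from the start (bp, negative upstream), 1 bar colour per list, with the promoter window shaded. The 9 genes have a WT and a 5-week bar over the start and no 1-week bar, and the Psmb10 bars of WT and 1 week begin downstream of the window.

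Of the immunoproteasome beta genes, Psmb8 and Psmb9 were called in every full list, and both were without a 1-week call when only peaks of −log10 q of at least 5 were kept. Psmb8, which replaces Psmb5, had widths of 1125, 366 and 1368 bp and folds of 3.46, 2.87 and 3.46 in WT, 1 week and 5 weeks. Psmb9, which replaces Psmb6 and shares a divergent promoter with the peptide transporter gene Tap1, the starts lying 38 bp apart, had widths of 1406, 1171 and 1900 bp and folds of 4.04, 3.17 and 4.18. Its percentile in these lists was 87.7, 83.3 and 95.9, and that of Psmb8 was 70.1, 76.4 and 84.0. Both were narrower at 1 week than in the other lists and widest at 5 weeks. Most genes went the same way, as 66.1% of all genes were narrower than in WT at 1 week and 62.7% wider at 5 weeks. Of the members called in both WT and 1 week, 35 of 36 were narrower at 1 week.

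Psmb10, which replaces Psmb7, accounted for the single gain. Its WT peak began 141 bp downstream of the start and its 1-week peak 511 bp downstream, outside the window, and its 5-week peak of 1777 bp at a fold of 3.42 and percentile 88.7 ran across the start. With a window from 2000 bp upstream to 500 bp downstream Psmb10 was called in WT as well and the gain vanished. A peak lay in the gene in all 3 lists, so the call marks where the peak edge fell.

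The interferon-inducible activator genes were called in every full list. The 1-week Psme1 peak lay at another annotated start, 173 to 489 bp downstream of the start of its longest transcript. Psme1 had no 1-week call with that start alone, or when only peaks of −log10 q of at least 5 were kept. Psme1 had the lowest WT percentile of any member, 61.0, and stood at 76.6 at 1 week and 88.8 at 5 weeks, the largest rise among all peaks of a list at both times, with folds of 3.32, 2.88 and 3.99. Such percentiles lean on list length, and they were higher than in WT for 59.5% of all genes at 1 week and 79.9% at 5 weeks. Ranked among promoter peaks alone, Psme1 rose by 7.56 points at 1 week, less than Psmc2 (16.1), Psme2 (13.4), Psmd11 (12.5) and Psmd14 (11.6), and by 28.8 points at 5 weeks, less than Psmb6 (50.1). Psme2, with the widest WT peak at 1889 bp, had folds of 3.93, 4.56 and 4.31 and percentiles of 93.1, 97.2 and 97.9, and was 1 of 2 members whose fold was above WT at 1 week, the other being the core subunit Psmb3 (3.71 in WT and 4.48 at 1 week). Promoter peaks at immune marker genes went from 0 of 14 in WT to 2 at 1 week (Ptprc and Emr1) and 4 at 5 weeks (Ms4a1, Csf1r, Emr1 and Coro1a), where 12.7% and 19.7% of all genes without a WT peak gained one. Cd3e, Cd3d, Cd79a, Itgam, Cd68, Laptm5, Lyz2 and Cd52 had none in any list. The part of immune cells in the Psme1 and Psmb9 values was not tested.

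Psma8, Psmb11 and Psme2b-ps stayed without a promoter peak in every list. Psma8 is the alpha subunit of the testis, Psmb11 the catalytic beta subunit of the thymic cortex, and Psme2b-ps the copy of Psme2 with a pseudogene name. The reads were kept only where they mapped to a unique place, so a close copy such as Psme2b-ps may lose reads, which was not tested. The nearest peak to the Psmb11 start, 6965 bp upstream in WT and 6917 bp at 5 weeks, was that of Psmb5.

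Against all genes, the peaks of the members were narrower at the median and had a higher median fold. The median width of the strongest promoter peak per member was 839 bp in WT (95% interval of the median over genes, 732 to 980 bp, which says nothing of the spread between libraries), against 1012 bp over all genes. At 1 week it was 527 bp (360 to 701 bp) against 865 bp, and at 5 weeks 803 bp (730 to 882 bp) against 1081 bp. The median fold was 5.12 in WT against 4.30, 3.53 at 1 week against 3.36, and 4.22 at 5 weeks against 3.69. The medians of the members were thus below those of all genes in width and above them in fold in each list, and the gap in fold was smallest at 1 week.

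The median within-list percentile was 89.6 in WT against 85.4 over all genes, 88.7 against 88.0 at 1 week and 91.8 against 89.8 at 5 weeks. CpG-rich genes had medians of 88.1, 89.1 and 91.8. Ranked among promoter peaks alone, the members had medians of 61.2, 52.7 and 57.5 and CpG-rich genes of 57.1, 53.8 and 57.3, so both were lowest at 1 week, and only genes with a peak in the list enter.

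Class by class the WT medians differed in both measures. Alpha subunits had a median fold of 5.56 and width of 980 bp, and ranged from Psma7 (percentile 66.6), whose 1730 bp peak is shared with Ss18l1, to Psma2 (99.6), with the highest WT fold of any member at 8.21. Beta subunits had a median fold of 4.71 and width of 694 bp, from Psmb7 to Psmb2 (percentile 96.9). The Psmc genes had a median fold of 4.80 and width of 663 bp, from Psmc2 (78.6), the start of which lies 32 bp from that of Dnajc2, to Psmc3 (98.8), and the Psmd genes a median fold of 5.31 and width of 848 bp, from the scaffold gene Psmd1 (65.0) to the lid gene Psmd8 (99.8). Psmd8 was the strongest member in WT and at 5 weeks (99.9), and Psmd4, a ubiquitin receptor, came next in WT (99.8). Among assembly chaperones Psmg4 stood highest (97.8) and Psmg3 lowest, and the only Psmf gene, Psmf1, an inhibitor of the core, stood at 74.8 in WT, 78.2 at 1 week and 85.3 at 5 weeks.

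**Figure D3:**
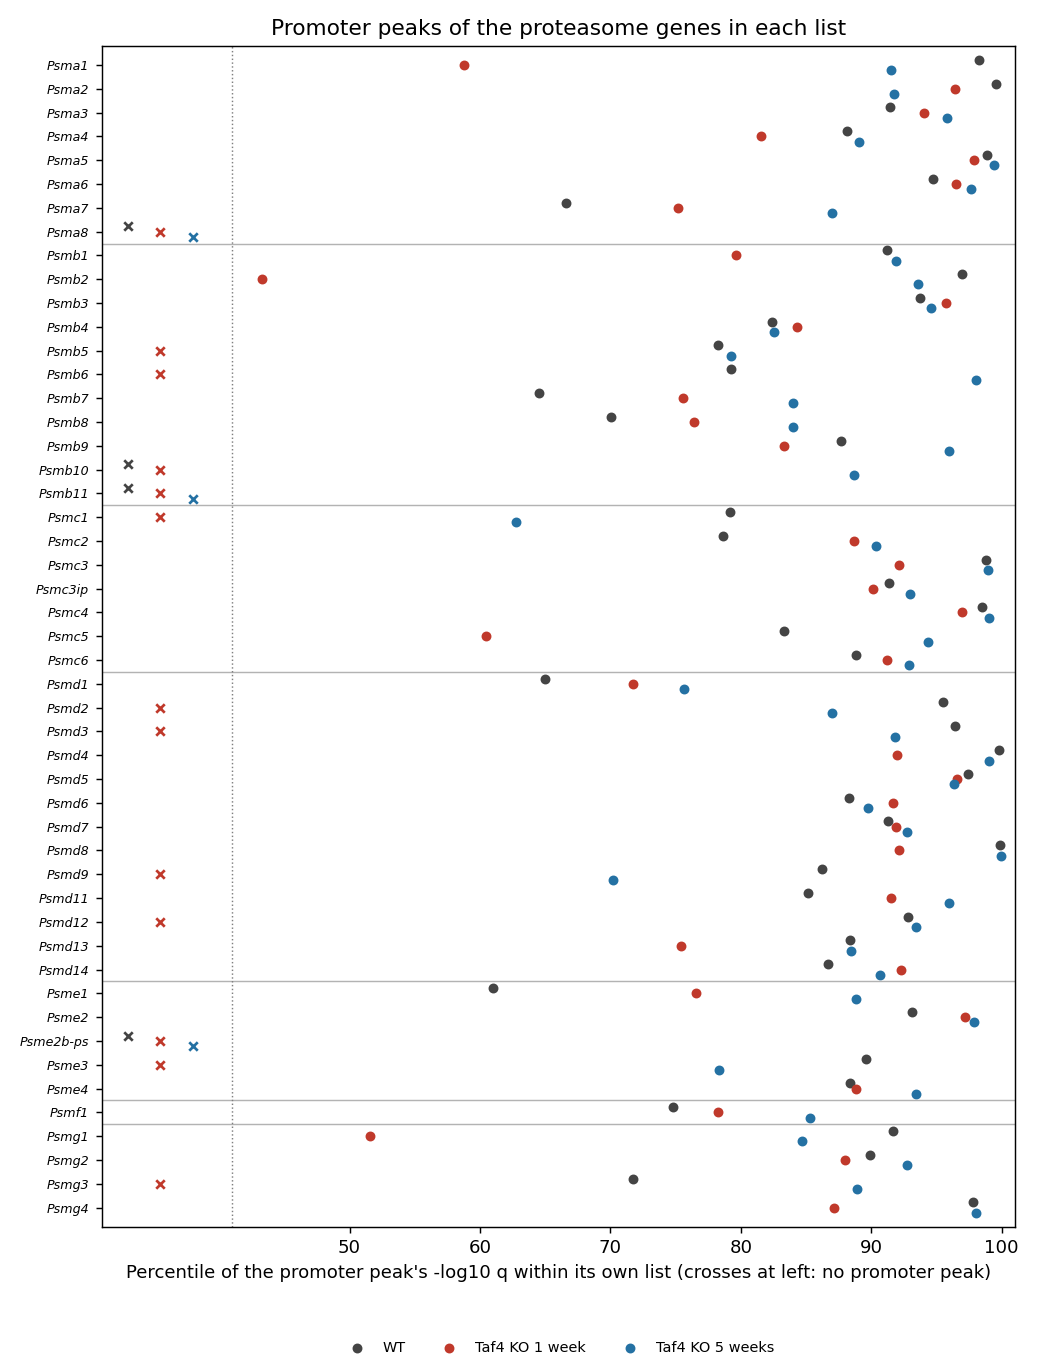
Percentile of the promoter peak's −log10 q within its own list (horizontal axis) for the 49 members, grouped by symbol class, with a point per list; crosses at the left mark a list without a promoter peak. WT and 5-week points mostly lie above 80, while the 1-week row holds 13 crosses and the lowest points.

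Among the 36 members called both in WT and at 1 week, the 1-week peak was narrower in 35 and its fold lower in 34. Over all genes called in both, 66.1% were narrower and 82.9% had a lower fold. The median ratio of width was 0.652 against 0.877 over all genes, and that of fold 0.717 against 0.817. Over CpG-rich genes 68.0% were narrower and 85.2% had a lower fold, with median ratios of 0.870 and 0.798. Psmd13 enters the member counts with the peak at its other start. The exception in width was Psmc2, at 455 bp in WT and 770 bp at 1 week. The 3 largest falls in percentile among all peaks were those of Psmb2, a core beta subunit (96.9 to 43.3, fold 6.27 to 2.39), Psmg1, an assembly chaperone (91.7 to 51.6, fold 5.74 to 2.47), and Psma1, an alpha subunit (98.3 to 58.8, fold 6.60 to 2.53). The 3 largest rises were those of Psme1, Psmb7 and Psmc2 (78.6 to 88.6), each from a low place in WT.

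The change was also read within 5 groups of equal size by the WT promoter ranking. In the strongest group the fold ratio at 1 week had a median of 0.553 over 10 members, against 0.739 over all 2492 genes, and the change in percentile among promoter peaks was −32.6 points against −11.0. In the next group the fold ratio was 0.711 over 9 members against 0.765, in the middle group 0.717 over 10 against 0.807, and in the group below 0.828 over 5 against 0.866. The weakest group held 2 members, at 0.817 against 0.943. The median width ratio of members was below that of all genes in each of the 5 groups as well, from 0.327 against 0.895 in the group below the middle to 0.796 against 0.847 in the middle group.

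At 5 weeks the ratios to WT were nearer to 1 than at 1 week, over 45 members. Width was lower in 27 and higher in 18, with a median ratio of 0.965 against 1.05 over all genes, and fold was lower in 36 of 45 (80%, against 76.5% of all genes), with a median ratio of 0.852 against 0.904. The percentile among all peaks was higher in 34 of 45 (75.6%, against 79.9% of all genes). That among promoter peaks was higher in 19 of 45 (42.2%, against 61.97%), with a median change of −1.91 points against 4.04 over all genes. Over CpG-rich genes 76.1% and 56.2% were higher in these rankings, with a median change of 1.91 points among promoter peaks. The median ratios of CpG-rich genes were 1.04 in width and 0.896 in fold. Among all peaks, the 3 largest rises were Psme1, Psma7 (66.6 to 87.0) and Psmb7, and the 3 largest falls Psmc1, Psmd9 and Psme3, all of which had been without a peak at 1 week.

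**Figure D4:**
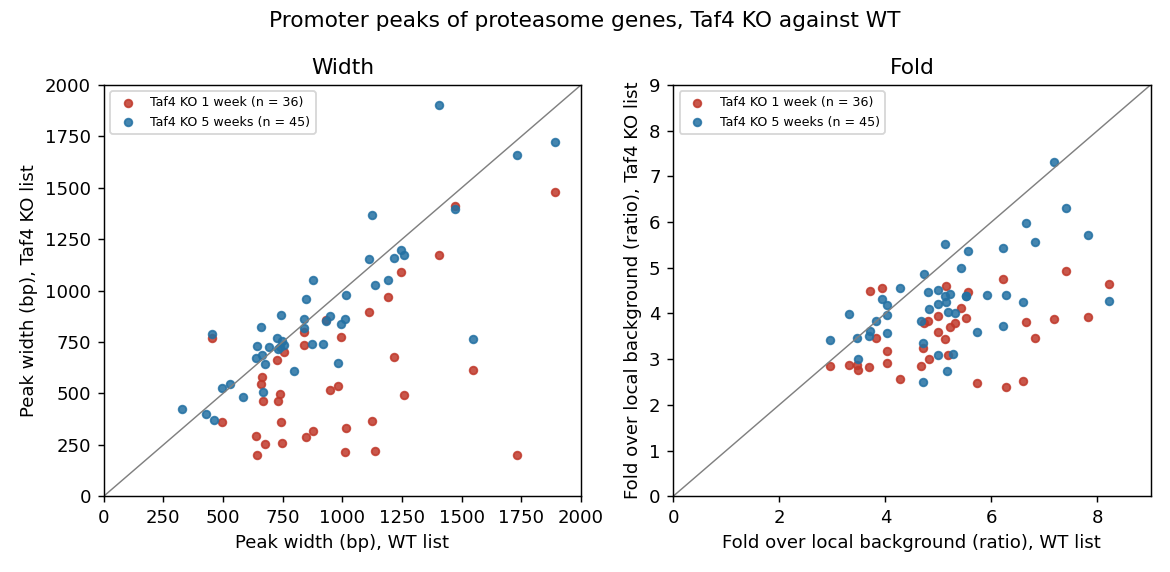
Width (bp, left) and fold over local background (ratio, right) of the strongest promoter peak of each member called in both lists, WT on the horizontal and Taf4 KO on the vertical axis, with the line of equality. At 1 week 35 of 36 points lie below the line in width and 34 in fold, and at 5 weeks 27 and 36 of 45 do.

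Loss at 1 week moved with the base composition of the surroundings over all genes. When genes were put in 5 equal groups by the share of G and C in the surrounding 1 Mb, 2.90%, 7.69%, 11.3%, 21.0% and 30.9% of genes with a WT peak lost it, from the lowest GC to the highest. The members lost 0 of 7, 0 of 8, 2 of 13, 5 of 10 and 2 of 7 in the same groups. The median GC content around the 9 lost members was 46.9% (44.5 to 50.8%) and around the 36 kept members 44.6% (39.0 to 50.1%). The part of base composition in the members' losses was not tested, and with 1 library per group it cannot be told apart from the genotype or from depth.

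**Figure D5:**
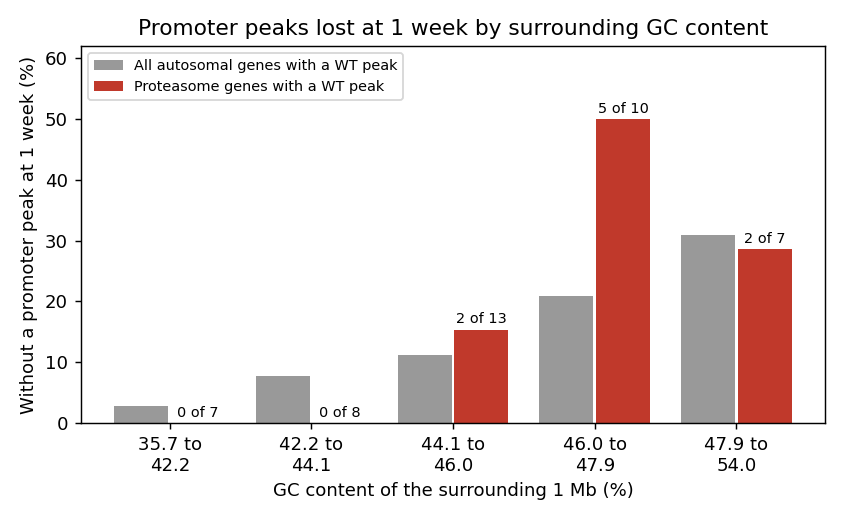
Share of genes with a WT promoter peak that had none at 1 week (%, from 0), in 5 groups of the GC content of the surrounding 1 Mb, for all autosomal genes (grey) and proteasome genes (red, with counts). The grey bars climb from 2.90% to 30.9%, and the lost members all lie in the 3 groups of higher GC.

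Loss was also read against the strength of the WT peak. Over all genes the loss fell from 37.2% in the weakest of 5 groups of WT promoter peaks through 16.6%, 11.3% and 6.44% to 2.20% in the strongest. Members lost 0 of 2, 4 of 9, 1 of 11, 2 of 11 and 2 of 12. The losses in the strongest group were Psmd2 and Psmd3, and these are counts of 2 genes in a single library.

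The antioxidant response letters stood in 4 of the 8 lost members that had a promoter in the table (Psmb5, Psmb6, Psmd9 and Psmd12) and in 2 of the other 32. The ETS-type letters stood in 4 of the 8 as well (Psmc1, Psmd12, Psme3 and Psmg3) and in 4 of the other 32. Over all genes with a WT peak, the antioxidant response letters stood in 14.5% of the promoters that lost the peak at 1 week and 15.3% of those that kept it, and the ETS-type letters in 9.55% and 7.82%. The split within the members was noticed after the calls were known and was not tested.

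Genes that serve the proteasome had a promoter peak in nearly every case. Of 35 listed, 33 were matched in the annotation (Paaf1 and Nlrc5 were not), and they included receptors and deubiquitinases of the cap, the maturation factor Pomp, the factors that activate proteasome genes, ubiquitin genes, shuttles, and genes of antigen presentation. All 33 were called in WT and 5 weeks, and 31 were called at 1 week, the exceptions being Nploc4, a cofactor of the segregase Vcp, and Tap2, the partner of Tap1. Over all genes 14.8% were lost at 1 week, and over CpG-rich genes 12.6%. Of all genes 59.9%, 56.1% and 66.7% were called in WT, 1 week and 5 weeks. Of CpG-rich genes, the nearer comparison for promoters of this kind, 92.7%, 82.8% and 95.9% were called. Nploc4 had a fold of 3.26 in WT and 2.61 at 5 weeks, and Tap2 3.12 and 3.19. Nfe2l1, the activator of proteasome genes, had folds of 4.48, 4.61 and 4.02 in WT, 1 week and 5 weeks, its processing protease gene Ddi2 6.27, 2.63 and 3.89, and Pomp 4.58, 2.43 and 3.31. Nfe2l1 thus changed little in fold across the lists, whereas Ddi2 and Pomp were lowest at 1 week. These genes were picked after their values were seen. A fold below WT at 1 week was found for 82.9% of all genes called in both lists.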

How the data were processed

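ATAC-seq libraries of dissociated mouse islets were analysed from the peak lists, 1 per group, grouped by the genotype and time labels. Per the submitters' processing notes, the authors used bcl2fastq 2.17.1.14, Bowtie 1.0.0 on mm9 and MACS2 2.1.1. The methods state that alignments to a unique place were kept. Duplicate removal, a shift to the insertion site and read totals were not given in the sources used here. The deposited lists give, per peak, its position, a whole-number score (not used), the fold over local background as a ratio, −log10 p and −log10 q. These were written by the authors' caller for each library on its own, so values were ranked within a list.

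Each list held 2 mitochondrial peaks, which were dropped. Genes and starts came from the GENCODE annotation of NCBIM37, the same build as mm9. Analyses used Python 3.11.15, numpy 2.4.6, pandas 2.3.3 and scipy 1.17.1, checked on simulated data. Each gene was given its strongest promoter peak by −log10 q. Of members with 2 gene IDs for 1 symbol (2 members) the longer was used. With 1 library per group no test was run. Pileup and background in reads were recovered from the deposited fold ratio and −log10 p to compare depth.

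Named genes were members whose call differed between lists, immunoproteasome, thymus and testis members, the highest and lowest WT percentile per class, the 3 largest rises and falls in percentile per time, and pathway genes whose call differed. Other genes named were chosen after their values were seen. The members and lists were chosen with earlier results of these data known. Alternatives were stricter −log10 q (3 and 5), lists of equal number or covered length, lists scaled to the WT background, other windows (from 2000 bp before to 500 bp after a start, and from 500 bp before to 100 bp after), other starts and other ranks.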

Additional observations from a re-analysis of the deposited data

Results flagged for a closer look

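The net change in called members had opposite signs at the 2 times after Taf4 inactivation, −9 at 1 week and 1 at 5 weeks, each against the same WT library. All autosomal genes had the same signs, going from 12738 called in the WT list to 11942 in the 1-week and 14188 in the 5-week list. With 1 library per time the difference between them was not tested. The 5-week gain was the Psmb10 peak alone.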

How the results depend on the processing

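The 1-week count of members with a promoter peak stayed below the WT count under each alternative tried, as did the count of all autosomal genes. Keeping peaks of −log10 q of at least 5 gave 22 members at 1 week, 23 lost and a net change of −23 there, and a median fold of 3.88. Over all genes that filter left 10535 called in WT and 7253 at 1 week, with 35.8% lost. At 5 weeks the same filter gave 2 lost and a net change of −1, the reverse of the 1 in the full lists. Of all genes 1.62% were lost at 5 weeks under that filter, and 11774 were called. Lists of equal covered length or scaled to the WT background gave 1 lost at 5 weeks (Psmc1) and a net change of 0. Over all genes these lists lost 7.44% and 6.41% at 5 weeks. The window from 2000 bp before to 500 bp after a start gave 0 gained at 5 weeks and a net change of 0, since Psmb10 was then called in WT.

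The median percentile moves by construction when weak peaks are left out. In WT it was 61.2 among promoter peaks only, 82.2 at −log10 q of at least 3 and 73.8 at 5. At 1 week it was 52.7, 68.1 and 49.97, and 75.6 with lists of equal number, 76.2 with equal covered length and 74.9 scaled. At 5 weeks it was 57.5, 79.9 and 72.6, then 79.7, 74.2 and 76.2. For the counts the cause was not tested beyond the construction of each alternative.

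No paired analysis was possible because each group holds 1 library. The lists differ in depth, read totals were not given in the sources used here, and a peak absent from a list was not called there, which is not a measure of closed chromatin. The scaled lists assume that pileup and background averaged over a peak scale alike. Leaving out a replicate could not be done with 1 library per group.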

Other observations

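Of the 45 members with a WT promoter peak, 9 have the start of another gene within 1000 bp on the opposite strand. These shared promoters were those of Psma2, Psma4, Psma7, Psmb9, Psmc2, Psmc5, Psmd13, Psme2 and Psmg2, so a peak there cannot be assigned to one gene of the pair. All 9 were called in each list, where 59.9%, 56.1% and 66.7% of all autosomal genes were called in WT, 1 week and 5 weeks. The Psmd13 call at 1 week lay at another start of the gene, and its shared promoter had no 1-week peak. The share over all genes with a shared promoter was not computed, so the count is not a result about shared promoters. Psmb2, whose percentile among all peaks fell the most at 1 week, kept a 1-week peak of 252 bp inside the span of its 676 bp WT peak, and at 5 weeks its peak was 643 bp wide.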
